A study of Mus musculus with 2 samples.

Results

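Chemokines and chemokine receptors were examined in RNA sequenced intestinal subepithelial myofibroblasts (ISEMFs), the contractile stromal cells that lie beneath the crypts of the gut. Members were the protein-coding genes whose symbol has a chemokine stem (Cxc, Cc, Cx3c or Xc), then l for ligand or r for receptor, a number and at most 1 further letter. This rule found 57 genes among 22379 protein-coding genes, of 37309 genes in all. Of these, 38 were ligands and 19 were receptors. One symbol of this form, Cxcl11, was not typed as protein-coding in the gene table and had no read in either library.

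Supportive ISEMFs were grown from the small intestine of 5-day-old neonatal wild-type C57BL/6 mice, and non-supportive ISEMFs from 2-month-old adult wild-type C57BL/6 mice. The names refer to how well each population sustained intestinal epithelium in co-culture. Both were isolated by enzymatic digestion and expanded in the same serum-containing medium with insulin, transferrin and EGF. Each population was sequenced as 1 library, so support, age, any difference in culture history and library cannot be told apart and no difference has a replicate check. The title of the gene table carries the marks P16 for the supportive and P3 for the non-supportive library, and only P3 recurs in a column name. Their meaning is not explained in the sources used here, so a difference in culture passage is possible. The adult cells are described as coming from adult mice in one place and from a single mouse in another, and the number of neonates is not given.

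Chemokines are small secreted proteins that direct the movement of leukocytes and other cells along a gradient, and most act through receptors coupled to inhibitory G proteins. They are named by the spacing of their first cysteines, and many genes of a class lie side by side on a chromosome as the products of gene duplication. In the gut, stromal cells, epithelium and resident macrophages all make chemokines, which place immune cells along the mucosa. Inflammatory members are induced through NF-kappaB and interferon signalling, while homeostatic members such as Cxcl12 are made constantly.

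Levels are given as reads per gene and as RPKM, in which the reads are scaled by the exon length of the gene and by library size. Reads on genes numbered 50674472 in supportive ISEMFs and 49615497 in non-supportive ISEMFs. Log2 ratios are of RPKM + 0.1, supportive over non-supportive, and a gene was called at a 2-fold difference only if its RPKM reached 1 in at least 1 library. Folds are ratios of RPKM without the added 0.1, with an exact 95% interval computed from the reads, which covers counting error and not the variation between cultures. Where a library had no read, the fold is a bound computed as if that library had 3 reads. In bulk RNA, fewer cells of a type and less RNA per cell cannot be told apart.

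Most markers of the labelled cell type were well above an RPKM of 1 in both libraries. Acta2, the smooth muscle actin of myofibroblasts, had an RPKM of 908 in supportive and 1410 in non-supportive ISEMFs, and the intermediate filament gene Vim had 325 and 407. Of 7 myofibroblast markers, all reached an RPKM of 1, 1 was at least 2-fold higher in supportive ISEMFs, 2 were lower and 4 were neither. The 2 lower genes were Pdgfra and Des, the latter at an RPKM of 0.575 in supportive and 3.40 in non-supportive ISEMFs, and the higher gene was Pdgfrb. A list of 17 macrophage markers differed between the libraries, with a summed RPKM of 9.59 in supportive and 139 in non-supportive ISEMFs. All 12 of its genes that reached an RPKM of 1 were at least 2-fold lower in supportive ISEMFs, and 8 of the 17 had no supportive read, namely Aif1, C1qa, C1qb, C1qc, Emr1, Itgam, Ptprc and Tyrobp.

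Most ligands with reads were higher in non-supportive ISEMFs, while the fractalkine gene Cx3cl1, the ligand gene Ccl17 and the scavenging receptor gene Cxcr7 were higher in supportive ISEMFs. Reads were found for 39 of the 57 members and none for 18. An RPKM of 1 was reached by 11 members (10 ligands and 1 receptor), a further 20 had at least 10 reads over both libraries at a lower RPKM, and 8 had fewer than 10 reads. Of the 11, 9 were past 2-fold, where 18.2% of the 9110 protein-coding genes at this level were. In supportive ISEMFs 3 of the 11 were higher, against 9.25% of all such genes, and 6 were lower, against 8.98%. A gene can reach the minimum through the library where it is high, so these counts describe the 11 genes only. The median log2 ratio of the 10 ligands was -2.16, and that of all such genes was -0.07.

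With the minimum set at 10 reads over both libraries instead, 31 members remained (20 ligands and 11 receptors). Of these, 23 had the larger RPKM in non-supportive ISEMFs, namely 16 of the 20 ligands and 7 of the 11 receptors. A log2 ratio of 1 or more was found for 3 of the 31, against 8.94% of 13874 genes, and of -1 or less for 16, against 9.74%. Members with reads in the non-supportive library alone numbered 13 of the 39 with a read (10 ligands and 3 receptors), against 8.16% of 16400 genes.

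**Figure D1:**
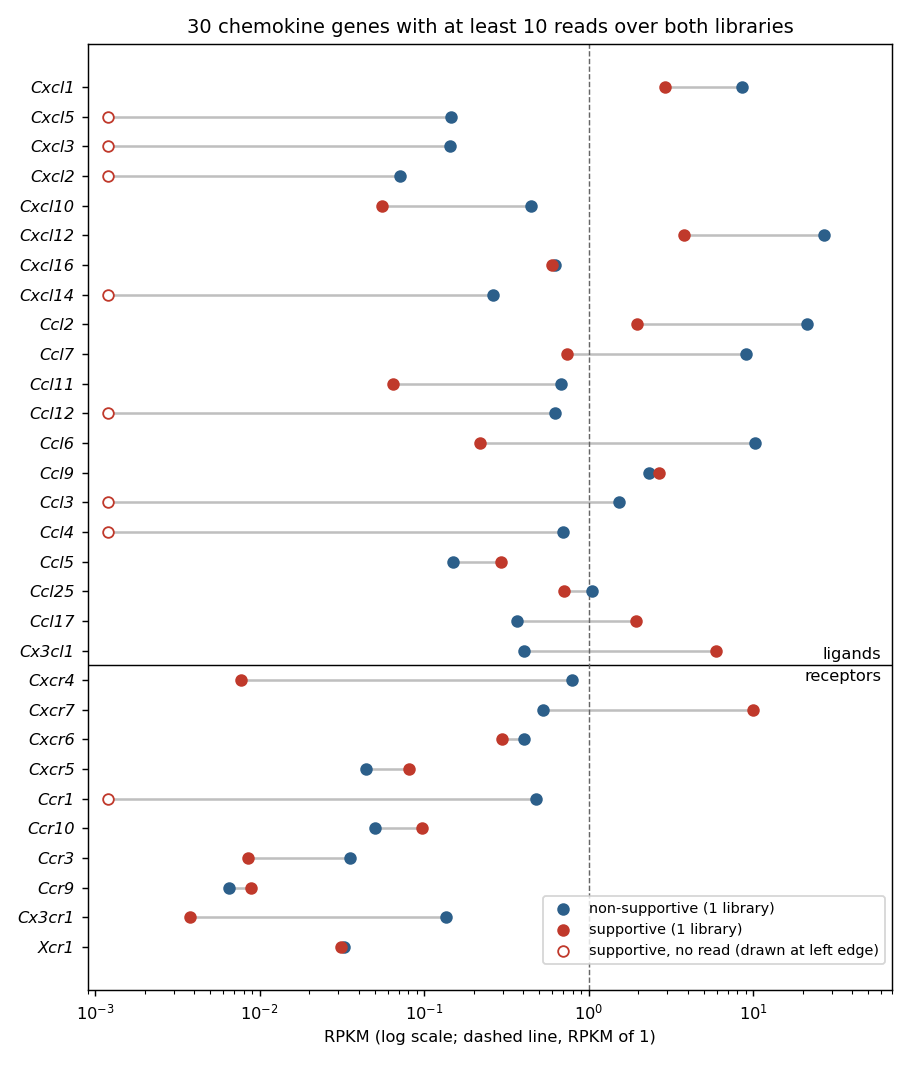
RPKM (log axis) of 30 of the 31 chemokine genes with at least 10 reads over both libraries, ligands above the line and receptors below, with 1 point per library. The non-supportive point lies to the right for 22 of the 30, and open circles mark the genes with no supportive read.

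Non-supportive ISEMFs had more ligand transcripts in all. The RPKM of the 38 ligands summed to 21.9 in supportive and 85.4 in non-supportive ISEMFs, which is 3.90-fold higher in the latter, and 3.24-fold higher without Cxcl12. The leading genes differed too. Cx3cl1 was the highest ligand in supportive ISEMFs with 27.1% of the sum, followed by Cxcl12, Cxcl1, Ccl9 and Ccl2. In non-supportive ISEMFs Cxcl12 made up 31.3% and Ccl2 24.9%, followed by Ccl6, Ccl7 and Cxcl1, while Cx3cl1 made up 0.476%. Levels of different genes depend on the exon length used. With the exon lengths of the GENCODE vM1 annotation Cx3cl1 and Cxcl12 were still first in their libraries, and the sums were 25.7 and 105.

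**Figure D2:**
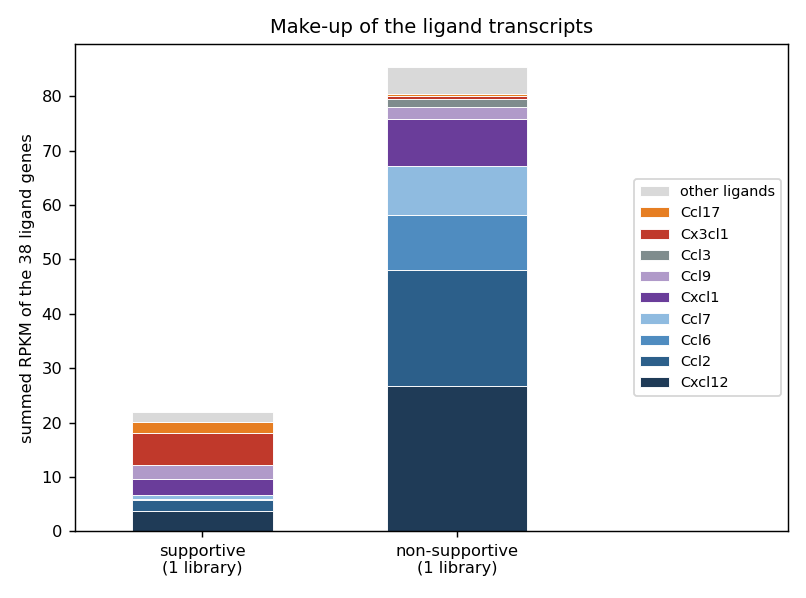
Summed RPKM of the 38 ligand genes in each library (1 bar per library, axis from 0), divided by gene. The sum was 21.9 in supportive and 85.4 in non-supportive ISEMFs, with Cxcl12 and Ccl2 the largest parts of the non-supportive bar and Cx3cl1 the largest of the supportive bar.

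Among CXC ligands, the neutrophil attractants that carry the ELR motif act on Cxcr2 and lie together on chromosome 5. Cxcl1 (chr5:91320267-91322141, plus strand, mm9) had 197 reads and an RPKM of 2.89 in supportive ISEMFs and 565 reads and an RPKM of 8.54 in non-supportive ISEMFs. It was 2.95-fold lower in supportive ISEMFs (2.51 to 3.49). The other members of the cluster were far less abundant. Cxcl2, Cxcl3 and Cxcl5 had no supportive read and 13, 10 and 28 non-supportive reads, for folds of at least 4.46, 3.43 and 9.60. Cxcl15, a further gene of this cluster, had 4 reads in supportive ISEMFs and none in non-supportive ISEMFs. Cxcl1 thus made up nearly the whole signal of the 5 members of this cluster. These span 147 kb and held 201 reads in supportive and 616 in non-supportive ISEMFs. The count leaves out Pf4 and Ppbp, CXC ligand genes on chromosome 5 whose symbols the rule does not match. Pf4 had no supportive read and an RPKM of 9.39 in non-supportive ISEMFs, above that of Cxcl1.

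Cxcl1, Cxcl2 and Cxcl3 are shown by sequence because they share the same 9 letters close to their starts. The RefSeq promoter table (GRCm38.p6; 250 bases before to 50 after each start) held 41 member symbols, Cxcr7 among them as Ackr3, and a gene with several promoters was counted once. Promoters were searched on both strands for GGANNTTCC, an NF-kappaB-type motif whose reverse complement is GGAANNTCC, and a run of bases that reads as both was counted once. The windows below were found unchanged in mm9 at the coordinates given, and capitals mark the motif.
Cxcl1, chr5:91320171-91320239, plus strand: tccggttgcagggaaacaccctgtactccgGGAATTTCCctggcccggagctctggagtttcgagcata
Cxcl2, chr5:91332799-91332867, plus strand: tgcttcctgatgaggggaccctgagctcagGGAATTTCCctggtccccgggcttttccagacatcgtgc
Cxcl3, chr5:91215025-91215093, plus strand: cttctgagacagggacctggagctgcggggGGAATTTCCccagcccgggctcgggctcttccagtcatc
The match GGAATTTCC began 70, 96 and 72 bases before the RefSeq starts of Cxcl1, Cxcl2 and Cxcl3. Among members with a promoter in the table, the motif was in 7 of 41 (17.1%), where 4.86% of 27025 genes held it. It was in 6 of 26 ligands and 1 of 15 receptors, the others being Cxcl10, Ccl1, Ccl12 and Ccr3. These are matches of letters and were not tested as binding sites.

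Cxcl10, an interferon-induced ligand of Cxcr3 that attracts activated T cells, had 6 reads in supportive and 47 in non-supportive ISEMFs. It was 8.06-fold lower in supportive ISEMFs (3.44 to 23.1), at an RPKM below 1 in both libraries. The opposite-strand gene Art3 overlaps 8.75% of its exon bases but had 1 read in each library. The related ligand Cxcl9 had no read. The Cxcl10 promoter is shown because it was the only member promoter with both motifs searched. The second motif was AAANNGAAA, an interferon-response-type motif whose reverse complement is TTTCNNTTT.
Cxcl10, chr5:92778035-92778157, minus strand: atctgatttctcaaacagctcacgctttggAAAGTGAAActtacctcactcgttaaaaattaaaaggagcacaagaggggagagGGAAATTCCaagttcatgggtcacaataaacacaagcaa
Capitals mark the interferon-response-type match, 212 bases before the RefSeq start, and then the NF-kappaB-type match, 158 bases before it. The interferon-response-type motif was in 5 of 41 members (12.2%), against 12.1% of genes. Neither motif was found in the promoters of Cxcl12, Cx3cl1, Ccl17, Ccl3, Ccl6, Ccl9, Ccl25 or Cxcr7. Of the 9 members past 2-fold, Ccl2 and Ccl7 had no promoter in the RefSeq table and were not searched.

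Cxcl12, the homeostatic ligand of Cxcr4 and Cxcr7 that retains stem cells and leukocytes in stromal niches, was the ligand with the most reads in both libraries. The gene is at chr6:117118553-117131385, plus strand. Supportive ISEMFs had 3446 reads of it, at an RPKM of 3.77, and non-supportive ISEMFs 23790 reads, at an RPKM of 26.7. It was 7.10-fold lower in supportive ISEMFs (6.85 to 7.36), a log2 ratio of -2.80. By RPKM it ranked 933 among protein-coding genes in non-supportive ISEMFs and 5024 in supportive ISEMFs. Its deposited exon length of 12807 bases exceeds the 8176 bases of the annotation used here, which bears on its level against other genes but not on the ratio.

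The other CXC ligands outside the ELR group were low. Cxcl14 had no supportive and 33 non-supportive reads, a fold of at least 11.3. Cxcl16, the membrane-anchored ligand of Cxcr6, had 184 and 187 reads, and its supportive over non-supportive ratio of 0.956 had an interval of 0.776 to 1.18. It shares 18.3% of its exon bases with Zmynd15 on the opposite strand, and the library kit used does not mark strand. Cxcl17 had 1 supportive read, and Cxcl13, the B cell attractant, had none in either library.

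The monocyte-attracting CC ligands of the first chromosome 11 cluster were lower in supportive ISEMFs. Ccl2, the principal attractant of monocytes through Ccr2 (chr11:81849073-81850955, plus strand), had 159 reads and an RPKM of 1.96 in supportive ISEMFs and 1678 reads and an RPKM of 21.2 in non-supportive ISEMFs. It was 10.9-fold lower in supportive ISEMFs (9.22 to 12.9). Ccl7 (chr11:81859214-81861027, plus strand), which attracts monocytes through several CC receptors, had 42 reads and an RPKM of 0.734 against 502 reads and an RPKM of 9.02. It was 12.3-fold lower (8.97 to 17.3). The eosinophil attractant Ccl11 had 5 and 51 reads and was 10.5-fold lower (4.22 to 33.7). Ccl12 had no supportive read and 39 non-supportive reads, a fold of at least 13.4.

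Ccl8 had 3 reads, all in non-supportive ISEMFs, and Ccl1 had none. All 5 genes of this cluster with a read therefore had more in non-supportive ISEMFs. The 6 genes span 270 kb, and their reads summed to 206 and 2273, or an RPKM of 2.75 in supportive and 31.6 in non-supportive ISEMFs. Macrophage markers moved with these genes, at a summed RPKM of 9.59 and 139, and their part in the difference was not tested.

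The second chromosome 11 cluster was split. Ccl6 (chr11:83401384-83406589, minus strand), a ligand that myeloid cells are known to make, had 37 reads and an RPKM of 0.217 in supportive ISEMFs and 1692 reads and an RPKM of 10.2 in non-supportive ISEMFs. It was 47.1-fold lower in supportive ISEMFs (34.0 to 67.1), and its log2 ratio of -5.02 was the lowest of the 11 members. Ccl3 (chr11:83461346-83462857, minus strand), an inflammatory ligand of Ccr1, had no supportive read and 81 non-supportive reads at an RPKM of 1.52, a fold of at least 27.8. Its neighbour Ccl4, an inflammatory ligand of the same class, had none and 32 reads, a fold of at least 10.98.

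Ccl9 lies next to Ccl6 and did not share its pattern. Ccl9 (chr11:83386421-83392138, minus strand) had 641 reads and an RPKM of 2.69 in supportive ISEMFs and 539 reads and an RPKM of 2.32 in non-supportive ISEMFs. The ratio of 1.16 in favour of supportive ISEMFs (1.03 to 1.30) was within 2-fold. Ccl5, which attracts T cells and lies at the other end of the cluster, had 20 supportive and 10 non-supportive reads, and its ratio of 1.94 had an interval of 0.868 to 4.65 that includes no difference. Across the 5 genes, which span 139 kb, 2 had the larger RPKM in supportive and 3 in non-supportive ISEMFs. The 3 that were lower in supportive ISEMFs moved with the macrophage markers. Ccl3 and Ccl4, but not Ccl6, were without a supportive read, as were 8 of those 17 markers. The part of macrophages was not tested.

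Ccl17 and Cx3cl1 were the only ligands past 2-fold in favour of supportive ISEMFs, and they are neighbours on chromosome 8. Cx3cl1 (chr8:97295909-97306323, plus strand), or fractalkine, is a membrane-anchored ligand that holds cells bearing Cx3cr1. In supportive ISEMFs 1844 reads gave an RPKM of 5.92, and in non-supportive ISEMFs 123 reads gave 0.406. It was 14.6-fold higher in supportive ISEMFs (12.1 to 17.6), a log2 ratio of 3.57. Ccl17 (chr8:97334353-97335935, plus strand), a ligand of Ccr4, had 71 reads and an RPKM of 1.94 against 13 reads and an RPKM of 0.365. It was 5.31-fold higher (2.91 to 10.5), with the fewest reads behind it of the 3 members that were higher.

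Ccl22, which shares the receptor Ccr4 with Ccl17 and lies on the far side of Cx3cl1, had 1 read in non-supportive ISEMFs and none in supportive ISEMFs. The 3 genes span 66.4 kb and held 1915 supportive and 137 non-supportive reads. The plot of log2 ratio by position sets the clusters side by side.

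The remaining CC ligands were low or absent. Ccl25 (chr8:4325210-4360020, plus strand), the small intestinal ligand of Ccr9, had 148 reads and an RPKM of 0.706 in supportive ISEMFs and 213 reads and an RPKM of 1.05 in non-supportive ISEMFs. It was 1.48-fold lower in supportive ISEMFs (1.195 to 1.84), short of 2-fold. A second gene with this symbol had no read, and since it shares 99.8% of its exon bases with the first, reads on those bases were not countable for either. Ccl27a had 3 supportive and 4 non-supportive reads and Ccl20 had 2, all non-supportive.

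Members without a read in either library were the lymphoid ligands Ccl19, Ccl21a, Ccl21b and Ccl21c, Ccl24, Ccl26, Ccl27b, Cxcl9, Cxcl13, Ccl1, Xcl1 and the second Ccl25, and the receptors Ccr6, Ccr7, Ccr8, Cxcr1, Cxcr2 and Cxcr3. A count of 0 allows an RPKM of up to 0.00806 to 0.149 in supportive ISEMFs and 0.00830 to 0.153 in non-supportive ISEMFs, depending on gene length. The Ccl21 genes are near-identical copies, and because only unique hits were kept their reads may have been lost.

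Receptors were scarce, with 1 exception. Cxcr7 (chr1:92100555-92113326, plus strand), an atypical receptor that takes up Cxcl12 without G protein signalling, had 2367 reads and an RPKM of 9.89 in supportive ISEMFs and 122 reads and an RPKM of 0.525 in non-supportive ISEMFs. It was 18.9-fold higher in supportive ISEMFs (15.7 to 22.8). Its log2 ratio ranked 60 from the highest among the 9110 genes. Cxcr7 made up nearly all of the summed receptor RPKM of 10.4 in supportive ISEMFs, where non-supportive ISEMFs had a sum of 2.62.

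The signalling receptor for the same ligand had the opposite order. Cxcr4 had 1 read in supportive and 99 in non-supportive ISEMFs, at an RPKM of 0.00774 and 0.788. Its ratio of 102 in favour of non-supportive ISEMFs had an interval of 17.9 to 4064. Of the genes of the Cxcl12 axis, the ligand and Cxcr4 were thus higher in non-supportive and Cxcr7 in supportive ISEMFs. Cxcr5 had 15 and 8 reads, with an interval of 0.725 to 4.96 around its ratio of 1.82, and Cxcr6 had 40 and 53, with an interval of 0.474 to 1.13 around 0.733.

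CC receptors summed to an RPKM of 0.118 in supportive and 0.693 in non-supportive ISEMFs. Ccr1, a receptor of Ccl3 and Ccl5 on myeloid cells, had no supportive read and 94 non-supportive reads, a fold of at least 32.2. Ccr2, the receptor of Ccl2, had 2 reads, both non-supportive, and Ccr4 had 8, all non-supportive.

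For 3 others the intervals included no difference. Ccr3 had 2 supportive and 8 non-supportive reads, Ccr9 had 7 and 5, and Ccr10 had 12 and 6. Ccr9 shares 8.36% of its exon bases with the transcript Gm17200, and reads on shared bases were left out of the counts. The fractalkine receptor Cx3cr1 had 1 and 35 reads, a ratio of 36.0 in favour of non-supportive ISEMFs (6.05 to 1463), and Xcr1 had 10 in each.

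Of Ccr1, Cx3cr1 and Cxcr4, which myeloid cells carry, Cx3cr1 and Cxcr4 had 1 supportive read each and Ccr1 had none. The macrophage markers Emr1, Itgam and Ptprc likewise had no supportive read, with 622, 1070 and 879 non-supportive reads. Of the 17 markers on that list, 9 did have a supportive read. Among these, Lyz2 had 592 supportive and 6629 non-supportive reads, and Cd53 had 522 and 1093. The part of macrophages in the receptor differences was not tested.

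**Figure D3:**
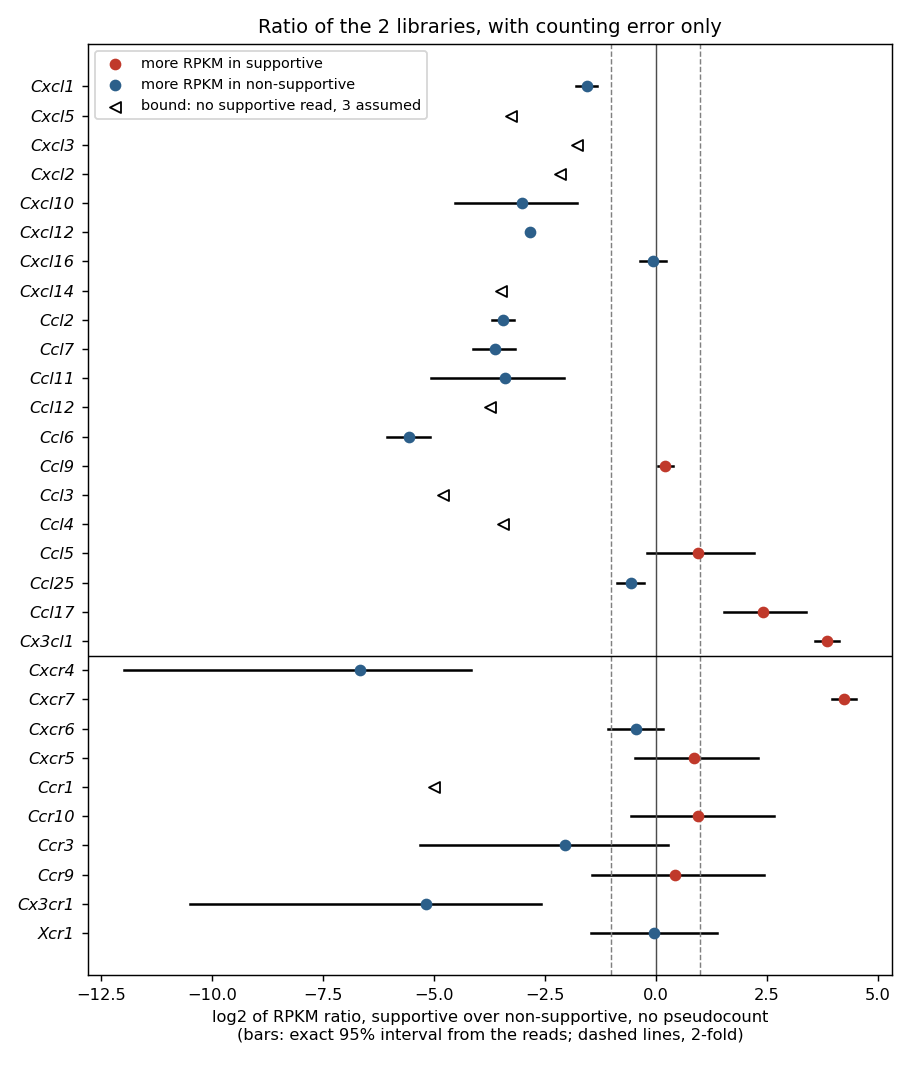
Log2 of the RPKM ratio without pseudocount (supportive over non-supportive) for 30 of the 31 members with at least 10 reads, with bars for the exact 95% interval from the reads and triangles for bounds where no supportive read was found. The 3 members past 2-fold in favour of supportive ISEMFs are Ccl17, Cx3cl1 and Cxcr7. Most receptor intervals are wide because reads were few in at least 1 library, down to 1 supportive read for Cxcr4 and Cx3cr1.

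Ligands can be set beside their receptors in the same library. Cx3cl1 was highest in supportive ISEMFs, where its receptor had 1 read. Ccl2 was high in non-supportive ISEMFs, where Ccr2 had 2 reads, and Ccl17 was higher in supportive ISEMFs, where Ccr4 had none. Cxcl1 was present in both, and Cxcr2 in neither. Ccl3 and its receptor Ccr1 both had the larger RPKM in non-supportive ISEMFs.

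**Figure D4:**
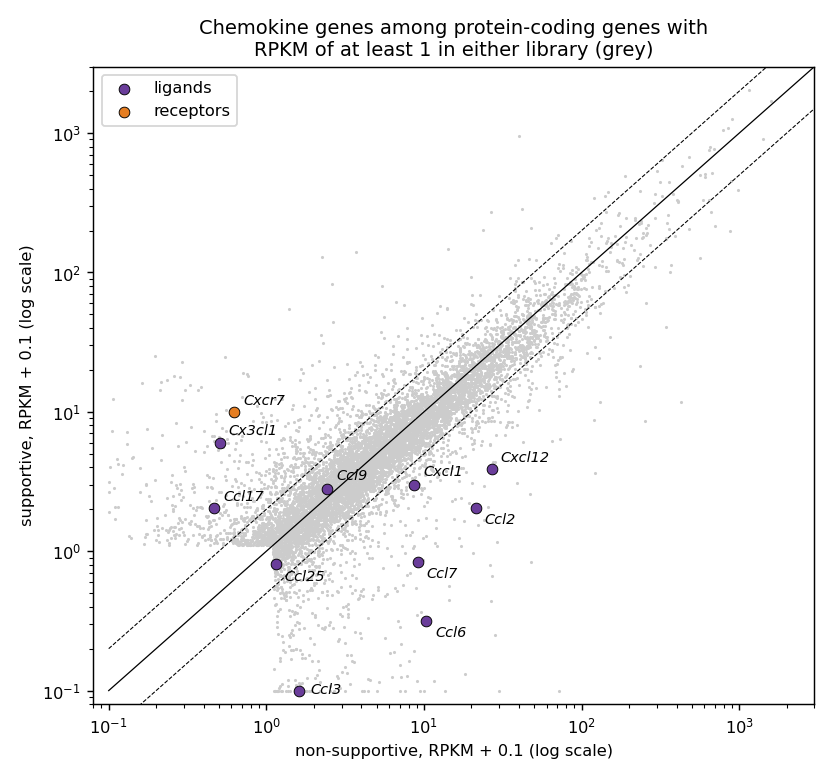
RPKM + 0.1 in supportive against non-supportive ISEMFs (log axes) for the 9110 protein-coding genes with RPKM of at least 1 in either library (grey), with the 11 chemokine members marked and dashed lines at 2-fold. Ccl9 and Ccl25 lie between the dashed lines, Cxcr7, Cx3cl1 and Ccl17 above them and 6 ligands below.

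Genes of the family whose symbols do not follow the rule showed both directions. Pf4, or platelet factor 4, a CXC ligand of megakaryocytes and macrophages, had no supportive read and 382 non-supportive reads at an RPKM of 9.39, a fold of at least 131. Its neighbour Ppbp had none and 42 reads, a fold of at least 14.4. One of the genes named Ccrl1, an atypical receptor that takes up Ccl19, Ccl21 and Ccl25, had 1024 reads and an RPKM of 6.79 in supportive ISEMFs and 119 reads and an RPKM of 0.812 in non-supportive ISEMFs. It was 8.36-fold higher in supportive ISEMFs (6.91 to 10.2), so that this scavenger and Cxcr7 had the same order. Other receptor genes outside the rule had few reads and no common order. The second gene named Ccrl1 had 9 supportive and 12 non-supportive reads, Ccrl2 had 13 and 14, Darc 0 and 6, and Ccbp2 2 and 0. Of the 8 such genes, 2 reached an RPKM of 1, of which Ccrl1 was higher and Pf4 lower in supportive ISEMFs, and the other 6 had up to 42 reads in a library.

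Of 23 signalling genes downstream of chemokine receptors, 11 reached an RPKM of 1, and 2 of these were past 2-fold, a share equal to the 18.2% of all genes at this level. Among the other 9 was the inhibitory G protein gene Gnai2 at an RPKM of 59.7 and 56.8. Grk5, a kinase that desensitises receptors, was higher in supportive ISEMFs at an RPKM of 4.18 against 1.62, and Grk6 was lower at 0.760 against 1.76. Genes of this list that leukocytes use were among those below an RPKM of 1. Pik3cg, Rac2, Dock2 and Vav1 had no supportive read and 132, 77, 89 and 29 non-supportive reads. Elmo1 (172 supportive against 82 non-supportive reads) and Pik3r5 (123 against 71), also below an RPKM of 1, had more in supportive ISEMFs.

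Regulators known to induce chemokine genes differed in both directions. Of 21 listed, 14 reached an RPKM of 1, of which 4 were higher in supportive ISEMFs, 4 lower and 6 within 2-fold, where 9.25% of all genes at this level were higher and 8.98% lower. Among the 4 higher were the interferon signalling genes Stat2 (RPKM of 12.4 against 1.93), Irf9 (2.59 against 0.702) and Irf1 (1.98 against 0.650). The 4 lower were the NF-kappaB feedback genes Nfkbiz (2.17 against 15.0), Tnfaip3 (1.23 against 3.84) and Nfkbia (2.56 against 5.63), and the cytokine gene Il1a (0.0142 against 1.59). The NF-kappaB subunit gene Rela had an RPKM of 5.91 and 5.96, and Nfkb1 had 1.67 and 2.23. Cxcl10, an interferon-induced gene, had more reads in non-supportive ISEMFs, where Stat2 was lower. The part of these regulators in the chemokine differences was not tested.

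Of 9 genes that process or present chemokines, 7 reached an RPKM of 1 and 1 of these was past 2-fold, against 18.2% of all genes at this level. The other 6 included the sheddases Adam10 (RPKM of 22.4 and 28.6) and Adam17 (5.85 and 5.35), which release Cx3cl1 and Cxcl16 from the membrane. The proteoglycan gene Sdc1 was higher in supportive ISEMFs at 5.79 against 1.94. Dpp4, a protease that trims Cxcl12, had 2 reads in each library.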

How the data were processed

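Purified mRNA of 1 supportive and 1 non-supportive ISEMF library was sequenced by the authors as single-end reads, aligned to mm9 with TopHat (2.0.4 in the submitters' processing notes) against Ensembl genes, and only unique hits were kept. The deposited counts are whole reads per gene made by the authors with HTSeq 0.5.4p3, leaving out reads of more than 1 gene. The deposited RPKM values were made by the authors from these counts, the deposited exon length and the library size, which was 7.14634e+07 and 6.94494e+07. The authors' log2 ratio and DESeq p-value columns were not used. With 1 library per population the variation between cultures cannot be estimated, so the comparisons rest on ratios without a test, and 1 alternative below uses a variation set by hand. Ratios come from the deposited RPKM with a pseudocount of 0.1, a minimum RPKM of 1 and a threshold of 2-fold, and exact Clopper-Pearson intervals (95%) from the counts. A count of 0 was bounded by 3 reads. Intervals and bounds cover counting error only. They treat each read as a separate molecule, which reads without molecular identifiers cannot show.

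Every member with an RPKM of at least 1 was named with both values, those with at least 10 reads by their reads, and the rest by count or range. Members and gene lists (family genes outside the rule, signalling, regulators, processing, and markers of myofibroblasts, macrophages, neutrophils, lymphocytes, dendritic cells, endothelium and epithelium) were chosen with earlier results of these data known. Coordinates are from GENCODE vM1 (mm9), which held all 57 members, 36 with the deposited exon length. Promoters are from RefSeq (GRCm38.p6), which matched 42 of the 57 members (41 symbols, Ccl25 being listed under 2 identifiers).

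The settings tried in place of these were a pseudocount of 1 or of 0.001, an RPKM minimum raised to 5 or dropped, 10 reads, 4-fold, interval bounds, rescaled RPKM, TMM factors (0.984 and 1.02), size factors (1 for both) and edgeR's exact test with an assumed coefficient of variation of 0.4. Annotation exon lengths were added after seeing the data. Steps were tested on simulated data. Values were computed in Python 3.11.15 with pandas 2.3.3, scipy 1.17.1 and numpy 2.4.6, and plotted with matplotlib 3.10.9. edgeR 4.0.16 was run under R 4.3.3, as was DESeq2 1.42.0, which gave size factors only. Not every gene of the lists is given by name, and 1 member is counted but not plotted. A further deposited table of Wnt pathway genes was not used.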

Additional observations from a re-analysis of the deposited data

How the results depend on the processing

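With 1 library per population, no alternative bears on the variation between cultures, and no paired fit or removal of a replicate could be run. No paired analysis was possible because each population has 1 library. The 9 members past 2-fold (8 ligands and 1 receptor) were the same number under a pseudocount of 1 or 0.001, rescaled RPKM, TMM factors, size factors and interval bounds, and no named member crossed 2-fold under the first 5 of these. A pseudocount of 1 moved the median log2 ratio to -1.31 for ligands, 2.84 for the single receptor and, within the counting interval, -1.29 for the 11 members. A minimum RPKM of 5 left 7 members past 2-fold, without Ccl3 and Ccl17, and moved the ligand median to -3.09. At 4-fold 8 members were called, without Cxcl1, against 6.62% of all genes. With no minimum, 15 ligands and 4 receptors, or 19 members, were past 2-fold, against 11.8% of all genes, with medians of -0.049 and 0 over all members. With 10 reads the counts were again 15, 4 and 19, and the ligand median was -1.67. The receptor median, which rests on Cxcr7 alone at the minimum RPKM of 1, reversed to -0.32 over the 11 receptors with 10 reads. edgeR's exact test of 1 library against 1, which rests on a coefficient of variation set by hand, called 11 ligands and 5 receptors, or 16 members, at an adjusted p of 0.05, against 6.49% of 16400 genes. Cxcl1 and Ccl17 were not among those 16. Annotation exon lengths gave 9 ligands, Ccl12 being the addition. Of 55 log2 ratios (11 members under the 5 scaling and pseudocount settings), 42 shifted by less than the half-width of the member's counting interval, 13 shifted further, 8 of these at a pseudocount of 1, and none reversed.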

Other observations

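Marker lists of further cell types were mostly low in both libraries. None of 6 neutrophil markers reached an RPKM of 1, and their summed RPKM was 0 in supportive and 0.108 in non-supportive ISEMFs. None of 8 lymphocyte markers did (0.0568 and 0.105), and none of 7 endothelial markers (0.173 and 0.549). Of 5 dendritic cell markers, Zbtb46 alone did, at an RPKM of 2.41 in supportive and 0.615 in non-supportive ISEMFs, while Flt3 and Cd209a had no read. Of 8 epithelial markers, Lgr5 was higher in supportive ISEMFs (RPKM of 7.22 and 0.00443) and Krt20 lower (0.0799 and 3.13). The others stayed below an RPKM of 1. Among them, Cdh1 had 159 supportive and 18 non-supportive reads and Muc2 had 27 and 3. Epcam, a general epithelial marker, had 0 and 5, Krt8 had 0 and 4, Lyz1 had 2 and 12, and Vil1 had 7 and 8.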
